A study of Sus scrofa with 30 samples.

Results

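The core of the canonical WNT pathway was followed across 5 stages of the sow mammary gland through 10 genes, chosen by name as the beta-catenin and WNT core of the series: the ligand WNT5A, the co-receptors LRP5 and LRP6, the destruction complex genes AXIN1, APC and GSK3B, beta-catenin itself (CTNNB1), its DNA-binding partners LEF1 and TCF7L2, and the feedback target AXIN2. They are 10 of 26019 genes and assembled loci analysed, and 67 of 61773 transcripts. A gene's level is the sum of its annotated transcripts in FPKM (fragments per kilobase of transcript, scaled to the number of mapped fragments).

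Samples came from multiparous, half-sibling Danish Landrace × Yorkshire sows: mid-gestation (MG, day 70), late gestation (LG, day 110), early lactation (EL, day 2 after farrowing), peak lactation (PL, day 10) and day 2 after weaning (W2). Each stage is labelled with 6 samples, but in every stage 3 of them were near-identical to each other and to the mean of the other 3, so only those other 3 sows were counted (n = 3 per stage, 15 in all). The near-identical samples differed from that mean by a median of 0.689 to 0.741% over transcripts. The labels disagree on 2 stages: samples titled MG carry a second label for early lactation and those titled EL one for mid-gestation. Titles were followed. Milk protein transcripts, leaving out PAEP, made up 1.19 to 2.95% of the total in the samples titled MG and 6.40 to 12.1% in those titled EL.

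WNT ligands bind Frizzled receptors, together with LRP5 or LRP6 in the canonical branch. Without that signal, AXIN1, APC and the kinase GSK3B hold and phosphorylate beta-catenin, which marks it for degradation; with it, beta-catenin builds up and acts with LEF1 and TCF7L2 on target genes such as AXIN2. Beta-catenin also links cadherins to the cytoskeleton at cell junctions, and WNT signalling is known for its part in mammary branching and stem cell maintenance. RNA levels do not report the phosphorylation or the stability of the protein.

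Every sample's values add up to about the same total (997480 to 1002643), so a rise of some transcripts lowers all others. The median gene of mean at least 1 FPKM was 0.76 higher in W2 than in PL on the log2 scale and 0.65 lower in PL than in MG, as deposited. Comparisons that include PL are therefore also given after median ratio scaling, which divides each sample by its median ratio to a reference of all samples. PL replicate 2 stood apart: milk proteins made up 28.5% of its total, against 13.9 and 9.14% in the other PL sows. In bulk tissue, fewer cells of a type and less RNA per cell cannot be told apart. The deposited table holds no read counts, so no counting interval is given.

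CTNNB1 was among the most abundant genes of the gland: its mean of 459 FPKM over the 15 sows was at percentile 99 of all genes. It lies on chromosome 13 at 25163550 to 25208314 (Sscrofa11.1), and 6 annotated transcripts were measured. Its level was highest after weaning and lowest at peak lactation. The 3 MG sows had 493, 660 and 689 FPKM, and the LG sows 460, 421 and 548. In EL the values were 396, 235 and 262, and in PL 95.3, 289 and 245. The W2 sows had 620, 795 and 677. All W2 values were above all PL, EL and LG values, and MG and W2 overlapped.

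The stage means of CTNNB1 ran from 697 ± 89.3 in W2 through 614 ± 105.5 in MG, 476 ± 65.4 in LG and 297 ± 86.2 in EL to 210 ± 102 in PL (SD, n = 3). No 2 neighbours in this order differed in limma's moderated test (W2 vs MG, LG vs MG, EL vs LG and PL vs EL; adjusted p from 0.37 to 1.00). CTNNB1 was 1.87 ± 0.34 (SE) higher in W2 than in PL on the log2(FPKM + 0.5) scale used for every fold change here, a 3.66-fold difference (limma, Benjamini-Hochberg adjusted p = 0.0020). It was lower in PL than in MG (-1.68 ± 0.34, adjusted p = 0.0049) and lower in PL than in LG (-1.32 ± 0.34, adjusted p = 0.024). After median ratio scaling these were 1.13 ± 0.23 (adjusted p = 0.0073), -1.02 ± 0.23 (adjusted p = 0.014) and -0.81 ± 0.23 (adjusted p = 0.047). Without PL replicate 2 they were 1.38, -1.19 and -0.83, each called. The call against LG ended without LG replicate 1 (adjusted p = 0.064) or LG replicate 4 (adjusted p = 0.094). It also ended when scaling was combined with leaving out PL replicate 2. Over 28 alternative limma fits it held in 22, with a highest adjusted p of 0.18.

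AXIN2, a scaffold of the destruction complex and a standard readout of canonical signalling, moved most. It lies on chromosome 12 at 12311293 to 12343207, and 2 of its 7 RefSeq transcripts were in the table. The MG sows had 4.52, 8.72 and 6.12 FPKM and the LG sows 3.38, 4.39 and 7.06. The EL sows had 0.283, 0.235 and 1.12, and the PL sows 0.0695, 0.523 and 0. After weaning the 3 values were 10.5, 10.5 and 9.58. Every gestation value was thus above every lactation value, and every W2 value above all others.

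AXIN2 was 4.01 ± 0.39 higher in W2 than in PL (adjusted p = 7.7e-05) and 3.46 ± 0.39 higher in W2 than in EL (adjusted p = 0.0040). It was lower in PL than in MG (-3.35 ± 0.39, adjusted p = 0.00024) and than in LG (-2.98 ± 0.39, adjusted p = 0.00085). These 4 differences were called after median ratio scaling too, at 3.64, 3.12, -3.06 and -2.83. It was also lower in EL than in MG (-2.79 ± 0.39, adjusted p = 0.049), a call at the edge of the threshold that was lost after median ratio scaling (-2.54, adjusted p = 0.055) and without any of 11 of the 15 sows taken singly. Between EL and LG, where the samples did not overlap either, the difference of -2.42 ± 0.39 was not called (adjusted p = 0.12).

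**Figure D1:**
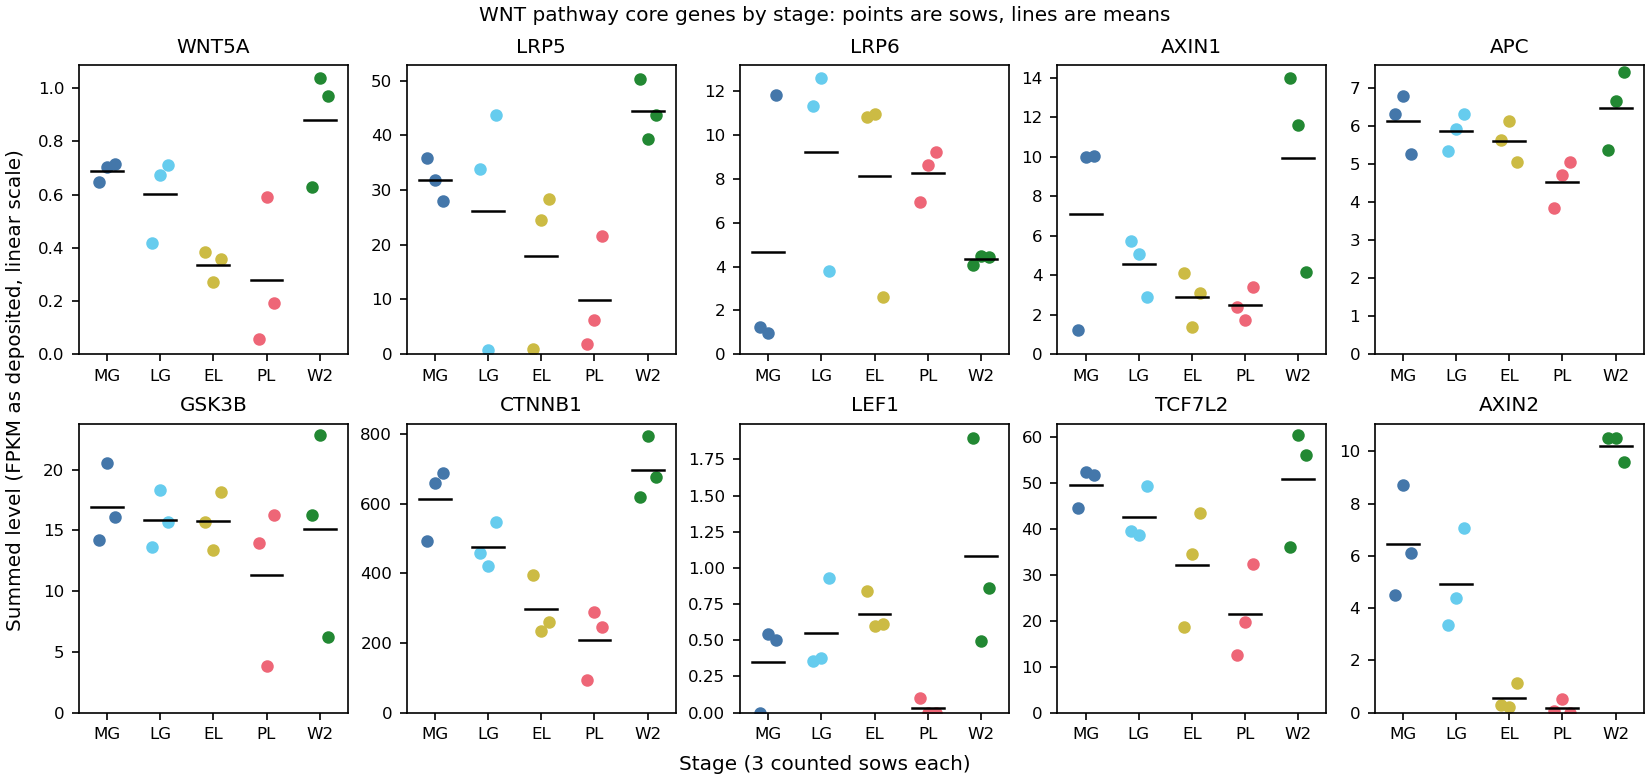
Summed level of each of the 10 core genes (FPKM as deposited, linear axes from 0, a different range in each panel) by stage; points are the 3 counted sows of a stage and lines their means. AXIN2 sits at or below 1.12 in all 6 lactating sows and at 9.58 or more in the 3 W2 sows, CTNNB1 is lowest in PL, and LRP6 is the one gene whose PL values all lie above its W2 values.

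The remaining nuclear partners were lowest at peak lactation as well. TCF7L2, a transcription factor that recruits beta-catenin to DNA, lies on chromosome 14 at 123343695 to 123547332, and 43 of its 50 RefSeq transcripts were measured. Its MG values were 44.6, 52.4 and 51.9 FPKM and its LG values 39.6, 38.7 and 49.5. In EL they were 18.6, 34.7 and 43.5, in PL 12.5, 19.8 and 32.4, and in W2 36.0, 60.6 and 56.3. The PL values lay below all MG, LG and W2 values. TCF7L2 was 1.29 ± 0.35 higher in W2 than in PL (adjusted p = 0.015) and lower in PL than in MG (-1.28 ± 0.35, adjusted p = 0.020). After median ratio scaling neither was called (0.56, adjusted p = 0.29; -0.64, adjusted p = 0.24). Without PL replicate 2 both ended as well (0.96, adjusted p = 0.060; -0.95, adjusted p = 0.073), and the first also without W2 replicate 3 (adjusted p = 0.059) or W2 replicate 6 (adjusted p = 0.053).

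LEF1, the related factor that is itself a WNT target in many tissues, was scarce, with a mean at percentile 10 of all genes. It lies on chromosome 8 at 113824511 to 113944078, and 2 of its 15 RefSeq transcripts were in the table. It was listed at 0, 0.543 and 0.502 FPKM in MG, at 0.354, 0.378 and 0.928 in LG and at 0.842, 0.600 and 0.613 in EL. In PL it was listed at 0.102, 0 and 0, and in W2 at 1.90, 0.498 and 0.859. Here PL lay below LG, EL and W2 without overlap, while MG held a sow at 0 as well. The W2 vs PL difference of 1.48 ± 0.38 was called as deposited (adjusted p = 0.012), after median ratio scaling (1.24, adjusted p = 0.042) and without PL replicate 2 (1.57, adjusted p = 0.020). Values this low make its fold change depend on the pseudocount of 0.5. On the transcript with the highest mean alone it was 0.61 and not called (adjusted p = 0.27).

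WNT5A, a ligand best known for the branch that does not run through beta-catenin, was near the floor of the table. It lies on chromosome 13 at 37344684 to 37367215, with 1 of 3 RefSeq transcripts measured, and its mean over the 15 sows was 0.558 FPKM. MG sows had 0.647, 0.706 and 0.717 FPKM and LG sows 0.418, 0.675 and 0.711. EL sows had 0.384, 0.270 and 0.356, PL sows 0.0563, 0.591 and 0.194, and W2 sows 0.629, 1.04 and 0.972. The EL values lay below all gestation values, and the PL values below all MG and W2 values. The W2 vs PL difference of 0.87 ± 0.28 was called (adjusted p = 0.033), but not after median ratio scaling (0.57, adjusted p = 0.18). It also ended without PL replicate 2 (adjusted p = 0.087), PL replicate 6 (adjusted p = 0.058), W2 replicate 3 (adjusted p = 0.085) or W2 replicate 6 (adjusted p = 0.076).

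The paired co-receptors LRP5 and LRP6, which serve the same step, did not share a pattern. LRP5 (chromosome 2, 4533721 to 4653997) had 35.8, 31.9 and 27.9 FPKM in MG and 50.4, 39.3 and 43.8 in W2, but varied widely between sows of the other stages. It was at 33.9, 0.804 and 43.7 in LG, at 1.01, 24.5 and 28.4 in EL and at 1.85, 6.32 and 21.6 in PL. The 4 lowest sows were those in which its main transcript, XM_021082720.1, was listed at 0. With this spread the W2 vs PL difference of 2.66 ± 1.34 was not called (adjusted p = 0.14), although the samples did not overlap. Its transcript XM_021082723.1, tested by itself, was called higher in W2 vs PL as deposited. Over 25 alternative fits the difference of that transcript ran from 2.18 to 5.17 and was called in 7.

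LRP6 (chromosome 5, 60149041 to 60318719) had 1 measured transcript. Its values were 1.22, 0.953 and 11.8 FPKM in MG, 11.3, 12.6 and 3.81 in LG and 10.8, 11.0 and 2.61 in EL. In PL they were 6.97, 8.62 and 9.21, and in W2 4.06, 4.50 and 4.46. It was the one core gene whose samples were all lower in W2 than in PL. The difference was -0.85 ± 0.74 as deposited (adjusted p = 0.40) and -1.54 ± 0.75 after median ratio scaling (adjusted p = 0.21), called on neither scale.

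None of the 3 destruction complex genes was called in any comparison in limma. At an unadjusted p below 0.05 were AXIN1 in W2 vs PL and W2 vs EL, and APC in W2 vs PL. AXIN1, the scaffold of the complex (chromosome 3, 41344908 to 41393999), had 1.21, 10.0 and 10.1 FPKM in MG, 5.74, 5.07 and 2.91 in LG and 4.13, 1.40 and 3.10 in EL. In PL it had 2.40, 1.71 and 3.41, and in W2 14.0, 11.6 and 4.19, again without overlap. The W2 vs PL difference was 1.68 ± 0.67 (adjusted p = 0.070). It was called without MG replicate 1 (adjusted p = 0.019) or W2 replicate 6 (adjusted p = 0.046), but not after median ratio scaling. Over 28 alternative fits the difference ran from 0.97 to 2.18 and was called in 4.

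APC, which helps to hold beta-catenin in the complex (chromosome 2, 116913354 to 116985303), had the smallest ratio of highest to lowest value of the 10. All 15 values of its single transcript lay between 3.83 and 7.41 FPKM. The PL sows had 3.83, 4.72 and 5.06 and the W2 sows 5.37, 6.66 and 7.41, which did not overlap. The difference was 0.47 ± 0.19 as deposited (adjusted p = 0.082) and turned to -0.21 ± 0.17 after median ratio scaling (adjusted p = 0.44).

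GSK3B, the kinase (chromosome 13, 140136109 to 140370197), lay between 13.4 and 22.8 FPKM in 13 of the 15 sows. The exceptions were 3.81 in PL replicate 3 and 6.23 in W2 replicate 6. The difference W2 vs PL was 0.44 ± 0.50 as deposited (adjusted p = 0.52), -0.27 ± 0.55 after median ratio scaling and -0.17 without PL replicate 3.

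The counts of called core genes are set here beside those of all genes. In W2 vs PL, as deposited, 5 of the 10 rose and none fell (limma, adjusted p below 0.05), while 32.8% of all 26019 genes were called, 30.4% of all being higher. Without PL replicate 2 or without W2 replicate 3 the count was 3, with the share of all genes in those fits not given here. The median difference of the 10 was 1.38, against 0.76 for the median gene of mean at least 1 FPKM. The 10 include LEF1 and WNT5A, whose means lie below 1 FPKM. After median ratio scaling 3 of 10 were called higher (LEF1, CTNNB1 and AXIN2), against 7.42% of all genes higher. The median was then 0.80 for the 10 and 0.11 for genes of mean at least 1 FPKM. The samples of 8 core genes did not overlap with W2 higher (40.6% of all genes), and those of LRP6 did not overlap with W2 lower (3.37%). AXIN2 was the one core gene past a log2 fold change of 2 as well, as were 5.22% of all genes.

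In PL vs MG 3 core genes fell (TCF7L2, CTNNB1 and AXIN2), with 25.2% of all genes called and 23% lower. In PL vs LG 2 fell (CTNNB1 and AXIN2), with 14.7% called and 13.1% lower. After median ratio scaling CTNNB1 and AXIN2 were the 2 called in each, with 5.96% and 5.14% of all genes lower. In EL vs MG the 1 called was AXIN2, with 0.0269% of all genes called, and in W2 vs EL it was again AXIN2, with 0.553% called (1 after scaling as well, with 0.135% of all genes higher). Without PL replicate 2 CTNNB1 was called too, in EL vs MG (-1.07, adjusted p = 0.044) and in W2 vs EL (1.26, adjusted p = 0.0080). No PL sow enters these 2 comparisons, so only the spread shared by all stages changed. The share of all genes called in that fit is not given here. The other 5 comparisons held no called core gene in limma. The share of all genes called was 0.0115% in LG vs MG, 0.0154% in EL vs LG, 4.62% in PL vs EL, 0.0115% in W2 vs MG and 0.0346% in W2 vs LG. At an unadjusted p below 0.05 they held 0, 1, 1, 1 and 1 core genes. Several of these comparisons share samples, so their counts are not independent.

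A moderated F test over all 5 stages called AXIN2 (adjusted p = 0.00023) and CTNNB1 (adjusted p = 0.010), as it did 18.3% of all genes. After median ratio scaling both were called again (adjusted p = 0.00043 and 0.025).

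**Figure D2:**
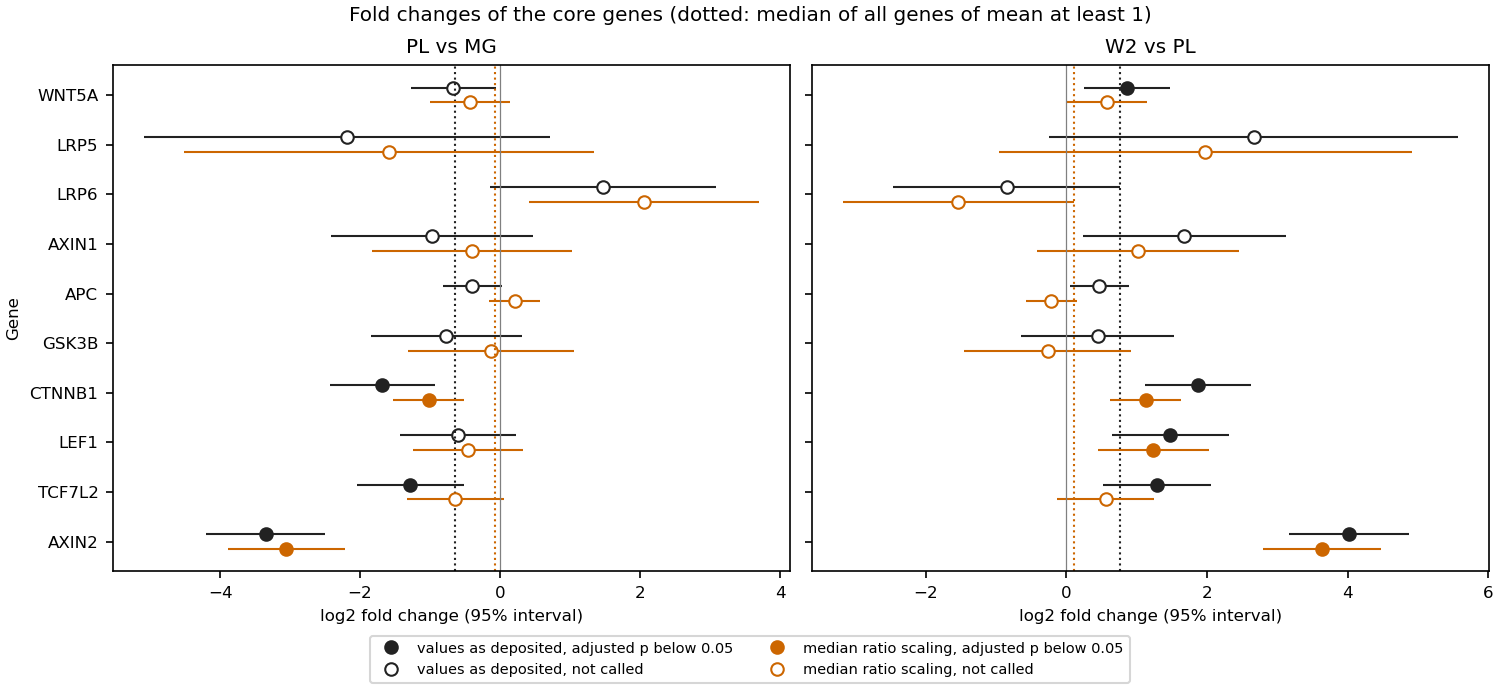
log2 fold change of the 10 core genes in PL vs MG (left) and W2 vs PL (right), with 95% intervals, as deposited (black) and after median ratio scaling (orange); filled points are called, and dotted lines mark the median gene of mean at least 1 FPKM. In both panels AXIN2 and CTNNB1 are called on both scales, while TCF7L2 loses its call after scaling.

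The make-up of the CTNNB1 sum also differed between sows of the same stage. NM_214367.1 was the most abundant of its 6 transcripts in all 15 sows, at 42.4 to 73.5% of the sum. XM_013981492.2 made up 23.1% in LG replicate 1, 25.6% in EL replicate 6, 20.8% in PL replicate 2, 19.4% in PL replicate 6 and 19.7% in W2 replicate 3. It was 11.2% in EL replicate 4 and at most 2.11% in each of the other 9 sows. In those 5 sows with 19.4% or more, XM_021068564.1 was at most 3.84%, against 5.60 to 18.8% in the others. The 2 transcripts thus took turns. Sows of 4 stages were on the high side of the first, and no MG sow was. Relative to the rest of the gene XM_013981492.2 was 3.72 higher in PL than in MG on the log2 scale (unadjusted p = 0.0051 in limma, adjusted p = 0.22) and not called. Shares of transcripts that differ little in sequence are estimates and can be split differently from sample to sample.

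**Figure D3:**
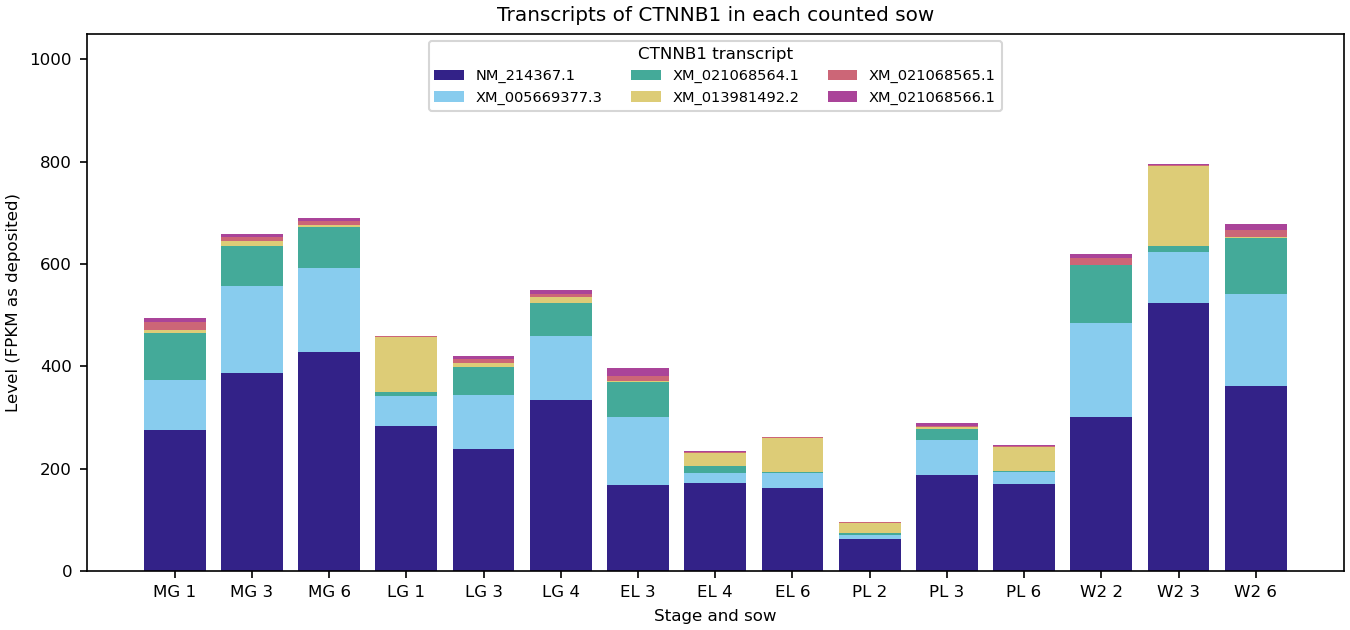
Level of the 6 annotated CTNNB1 transcripts (FPKM as deposited, stacked) in each of the 15 counted sows, in stage order. NM_214367.1 is the largest segment in every bar, and XM_013981492.2 is a large segment in 1 LG, 1 EL, 2 PL and 1 W2 sow and small in the others apart from EL replicate 4.

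In the test per transcript 11 of the 67 core transcripts rose in W2 vs PL (7.13% of all transcripts called), 6 fell in PL vs MG (4.28%) and 2 fell in PL vs LG (2.26%). These counts were 4, 2 and 2 after median ratio scaling. Of all 61773 transcripts, 982 were then called higher in W2 vs PL, 754 lower in PL vs MG and 636 lower in PL vs LG. Without PL replicate 2 the core counts were 5, 4 and 1, and the share of all transcripts called in that fit is not given here. No core transcript was called in the other 7 comparisons in limma, with 1 to 26 at an unadjusted p below 0.05. There the share of all transcripts called was 0.0162% in LG vs MG, 0.0178% in EL vs LG, 0.698% in PL vs EL, 0.0405% in EL vs MG, 0.0275% in W2 vs MG, 0.0324% in W2 vs LG and 0.0664% in W2 vs EL. NM_214367.1 rose by 1.61 ± 0.36 in W2 vs PL (adjusted p = 0.018) and XM_005669377.3, the next of CTNNB1 by mean, by 2.59 ± 0.72 (adjusted p = 0.048). Both AXIN2 transcripts rose too. XM_021066733.1 went from 0.0695, 0.523 and 0 FPKM in PL to 5.36, 2.85 and 5.56 in W2 (2.89 ± 0.77, adjusted p = 0.041). XM_021066739.1 was listed at 0 in all 6 lactating sows and had 5.18, 7.69 and 4.01 in W2 (adjusted p = 0.029). None of these 4 was called after median ratio scaling (adjusted p = 0.11, 0.16, 0.10 and 0.056 in the order named), and without PL replicate 2 NM_214367.1 alone was (adjusted p = 0.022).

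The leading transcript of GSK3B also differed between sows of the same stage. XM_021068182.1 made up 93.0 to 98.4% of the sum in MG replicate 1, LG replicate 1 and EL replicates 3 and 4, and XM_021068187.1 made up 95.4% in MG replicate 6 and 89.1% in LG replicate 4. XM_021068185.1 led in the other sows, with 47.0 to 75.4%, except in W2 replicate 2, where 3 transcripts had 32.0 to 32.6% each. A test of transcript use within genes (diffSplice in limma) called 0 of the 30 core transcripts of 5 genes it could test in each of the 10 comparisons, with 0 to 4 at an unadjusted p below 0.05 and a lowest adjusted p of 0.094. Among all 22725 transcripts tested it called 0.0616 to 0.651%.

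The other genes of the pathway were taken from 10 lists by role, 123 genes in all, of which 96 had an annotated transcript analysed. In W2 vs PL 46 of the 96 rose and 1 fell, with a median of 0.90, beside 30.4% of all genes higher and 0.76 for the median gene. After median ratio scaling 14 rose and 2 fell, with a median of 0.21, beside 7.42% and 0.11. Without PL replicate 2 35 rose, and the share of all genes in that fit is not given here. The list counts below stand beside these same shares of all genes and medians of genes of mean at least 1 FPKM. In PL vs MG 33 fell and 2 rose (23% of all genes lower), and 8 fell and 1 rose after scaling (5.96%). In PL vs LG 21 fell and 1 rose (13.1% lower), and 8 fell and 2 rose after scaling (5.14%). RSPO1 was the 1 gene called in PL vs EL (lower). BAMBI was the 1 called in W2 vs EL (higher), a call lost after scaling (adjusted p = 0.10). Without PL replicate 2 30 genes were called there, at the same median difference of 0.60. The W2 and EL values were the same in that fit, and only the spread shared by all stages changed. Its share of all genes called in W2 vs EL is not given here, while its F test called 20.75% of all genes, against 18.3%. None of the 96 was called in limma in the other 5 comparisons, with 1 to 23 at an unadjusted p below 0.05.

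Of 11 target genes beside AXIN2, 5 rose in W2 vs PL, and 3 after median ratio scaling (list medians 1.32 and 0.86). BAMBI, a pseudoreceptor of TGF-beta signalling, was listed at 0, 0 and 0.659 FPKM in PL and at 4.53, 3.64 and 4.59 in W2 (2.84 ± 0.37, adjusted p = 0.00032; scaled 2.52). NKD1, an inhibitor that binds Dishevelled, had 0.357, 1.02 and 0.959 in PL and 5.88, 9.09 and 4.05 in W2 (2.40 ± 0.57, adjusted p = 0.0075; scaled 1.87). MYC rose by 2.14 ± 0.39 (adjusted p = 0.0019), which was not called after scaling (1.46, adjusted p = 0.063). CCND1, cyclin D1, was at 25.9, 55.0 and 31.1 in MG and at 7.23, 8.59 and 5.30 in PL (-2.28 ± 0.33, adjusted p = 0.00075; scaled -1.64). NKD1, BAMBI, CCND1 and MYC had lower PL than MG values in all sows, like AXIN2. The share of all genes that did so is not given here, while 23% of all genes were called lower in PL vs MG.

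Among receptors 6 of 12 rose in W2 vs PL (4 after scaling; medians 1.24 and 0.61). They included the Frizzled receptors FZD1 (2.61 ± 0.38, adjusted p = 0.00055), FZD2 (1.88 ± 0.35, adjusted p = 0.0020) and FZD7 (1.63 ± 0.49, adjusted p = 0.025) and the co-receptor PTK7 (2.69 ± 0.46, adjusted p = 0.0013). FZD7 was not called after scaling (0.91, adjusted p = 0.15) or without PL replicate 2 (0.90, adjusted p = 0.052). Of the R-spondin axis, which keeps receptors at the surface, 3 of 5 rose (1 after scaling; medians 1.12 and 0.42). RSPO1, a ligand of that axis, had 43.98, 52.0 and 62.3 FPKM in LG, 61.4, 23.6 and 33.4 in EL and 1.69, 4.22 and 4.66 in PL. It was lower in PL than in LG (-3.81 ± 0.35, adjusted p = 0.00012; scaled -3.36). Its receptor LGR6 was lower in PL than in MG (-2.05 ± 0.47, adjusted p = 0.0091), though not after scaling (-1.41, adjusted p = 0.12). The ubiquitin ligases ZNRF3 and RNF43, which remove Frizzled receptors, rose by 1.58 ± 0.54 and 1.12 ± 0.33 in W2 vs PL (adjusted p = 0.042 and 0.021); neither was called after scaling or without PL replicate 2.

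**Figure D4:**
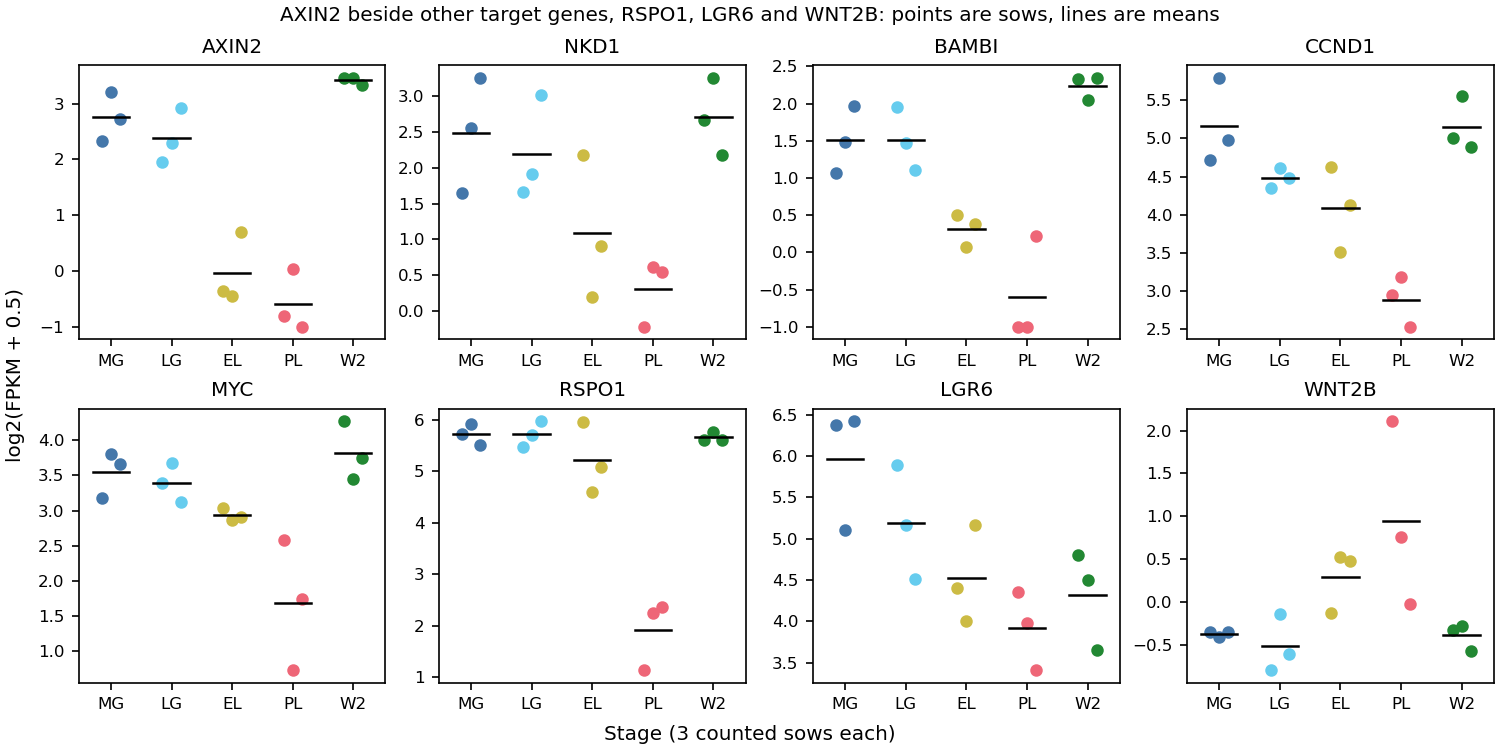
Levels on the log2(FPKM + 0.5) scale (a different range in each panel) of AXIN2, 4 other target genes, RSPO1, LGR6 and WNT2B by stage; points are the 3 counted sows of a stage and lines their means. RSPO1 drops at PL, AXIN2, BAMBI and MYC already lie lower in EL than in gestation, and WNT2B runs the other way.

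Secreted and surface inhibitors rose too, 6 of 12 (3 higher and 1 lower after scaling; medians 1.18 and 0.57). SOSTDC1 (2.33 ± 0.54, adjusted p = 0.0068), FRZB (2.05 ± 0.33, adjusted p = 0.00097) and APCDD1 (2.04 ± 0.46, adjusted p = 0.0058) were called on both scales. SFRP4 (2.00 ± 0.51, adjusted p = 0.011) was called as deposited but not scaled (1.36, adjusted p = 0.091). Of 8 ligands with values (medians 0.78 and 0.25), WNT6 (1.46 ± 0.48, adjusted p = 0.034) and WNT9A (0.82 ± 0.22, adjusted p = 0.013) rose as deposited, and neither was called after scaling. WNT2B fell in W2 vs PL (-1.34 ± 0.44, adjusted p = 0.035), but was not called without PL replicate 2 (-0.75, adjusted p = 0.097). It had 0.0775, 0.406 and 0.160 FPKM in LG and 3.81, 1.19 and 0.484 in PL, where it was 1.46 ± 0.44 higher (adjusted p = 0.044), with adjusted p = 0.055 after scaling and 0.093 without PL replicate 2. In W2 vs PL neither ligand secretion gene was called in limma, nor had either an unadjusted p below 0.05. WLS was at 0.63 ± 0.34 (adjusted p = 0.18) and PORCN at 0.54 ± 0.35 (adjusted p = 0.26), and they turned to -0.07 and -0.08 after scaling.

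Of 14 genes of the Dishevelled and destruction complex list 8 rose in W2 vs PL, among them DVL2 (1.02 ± 0.22), CSNK2A1 (0.98 ± 0.18), CSNK1D (0.95 ± 0.22) and GSK3A (0.88 ± 0.17). The list median of 0.79 was close to that of genes of mean at least 1 FPKM. After scaling none of the 14 was called in limma (2 at an unadjusted p below 0.05). Of 16 nuclear partners 9 rose (medians 1.06 and 0.37), with CTNNBIP1 (1.35 ± 0.25, adjusted p = 0.0021), which blocks beta-catenin from binding its partners, as the one called after scaling (0.63, adjusted p = 0.032). TCF7L1 (1.28 ± 0.28), TLE3 (1.27 ± 0.35) and BCL9L (1.26 ± 0.43) were called as deposited only, the last not without PL replicate 2 (adjusted p = 0.16). Among the adherens junction genes (medians 0.91 and 0.18) 4 of 6 rose, including CDH1, E-cadherin (1.02 ± 0.30), VCL (1.01 ± 0.27) and CTNND1 (0.93 ± 0.24), and none in limma after scaling (1 at an unadjusted p below 0.05). CDH3, P-cadherin, was higher in PL than in MG (1.81 ± 0.61, adjusted p = 0.047), with adjusted p = 0.056 after scaling and 0.11 without PL replicate 2. In the planar polarity and calcium list 3 of 10 rose, near the 30.4% of all genes (2 after scaling; medians 0.67 and 0.03), with VANGL2 called on both scales (1.36 ± 0.29 and 0.72 ± 0.21) and PRICKLE1 (0.70 ± 0.21) at -0.02 after scaling. CAMK2D was lower in PL than in LG (-2.81 ± 0.57, adjusted p = 0.0078; scaled -2.68).

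**Figure D5:**
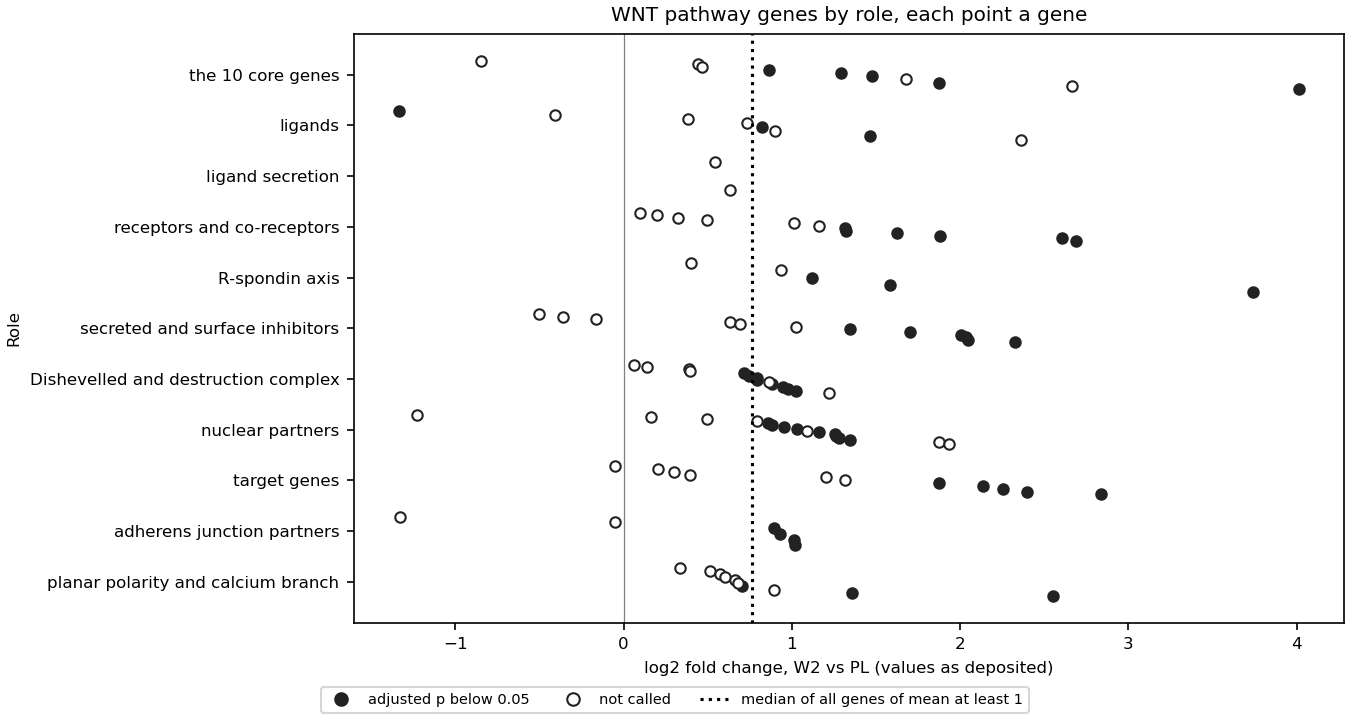
log2 fold change in W2 vs PL (as deposited) of the 10 core genes and of the other WNT pathway genes by role; each point is a gene, filled where the adjusted p is below 0.05, and the dotted line marks the median gene of mean at least 1 FPKM at 0.76. AXIN2 (4.01) and RSPO1 are the points farthest to the right, and the called genes of the Dishevelled and adherens junction lists lie between 0.71 and 1.02.

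Markers of the cell types in the tissue moved between the same stages. The summed level of 6 fibroblast markers was 472 to 1087 FPKM in PL and 1401 to 2632 in W2, and that of 4 cell division genes 2.46 to 7.71 in PL and 36.2 to 66.9 in W2. Of the cell division genes, TOP2A, CCNB1 and CDK1 were each higher in all W2 than in all PL sows. MKI67 overlapped (0.2396 to 1.204 in PL, 0.3634 to 1.119 in W2). Of 5 listed adipocyte markers 3 were measured, at 253 to 388 in PL and 499 to 616 in W2, a sum made up mostly of FABP4, while LEP was higher in PL (1.56 to 15.9, against 0 to 0.393). Of 4 endothelial markers 3 were measured, at 68.9 to 100.9 and 112 to 128. The 5 luminal epithelial markers overlapped (771 to 1592 in PL, 1249 to 1720 in W2), as did 5 of 6 myoepithelial markers (879 to 2161 and 1535 to 1803) and 5 of 6 leukocyte markers (18.2 to 310.3 and 31.8 to 43.3). Among the leukocyte markers CD14 was higher in PL (9.23 to 298, against 5.38 to 7.90) and CSF1R lower (1.31 to 7.47, against 17.2 to 19.4). No measured marker list summed to 0 in any sow, and KRT14, ADIPOQ, PLIN1, CDH5 and CD68 had no annotated transcript analysed. The sum of 7 milk protein genes was higher in all PL than in all W2 sows, and, without PAEP, they made up 0.579 to 0.816% of the total in W2. The part of cell composition in the differences of CTNNB1, AXIN2 and the other core genes was not tested.

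Across the 15 counted sows, the core genes differed in how closely they followed CTNNB1. Pearson's r with CTNNB1 on the log2 scale was 0.91 for WNT5A, 0.87 for AXIN2, 0.79 for TCF7L2, 0.76 for APC, 0.62 for AXIN1, 0.51 for LRP5, 0.48 for LEF1, 0.15 for GSK3B and -0.29 for LRP6. Over the 5749 annotated genes of mean at least 10 FPKM the median r was 0.77, so most genes ran with CTNNB1. Those most like it were C14H1orf198 and ANP32A (0.99 each), ANTXR1 (0.99), CIAO1 (0.99) and PON2 (0.99). The least like were LOC106510641 (-0.96), ACSL3 (-0.95), an acyl-CoA synthetase, and LALBA (-0.93), the milk protein alpha-lactalbumin. These values describe 15 samples that share a fixed total and 5 stages.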

How the data were processed

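RNA-seq libraries of sow mammary gland (30 samples, 6 per stage) were trimmed with Trimmomatic, aligned to Sscrofa11.1 with HISAT2 and assembled into transcripts by the authors, who deposited 1 table of FPKM values per transcript. Each sample sums to about the same total, as TPM would. Annotated identifiers were matched to genes through RefSeq (32675 of 32726); FPKM were summed per gene, which leaves out 29047 assembled transcripts that carry no gene name and were analysed as 11061 loci. Near-identical samples (median difference under 5% from the mean of the others) were not counted. Log2(FPKM + 0.5) values of the 15 counted samples were fitted with limma 3.58.1 (R 4.3.3; trend, 5 stages in one fit), with 10 comparisons and Benjamini-Hochberg adjustment over all genes or transcripts in each; a call is an adjusted p below 0.05. The samples are separate sows.

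Core genes and lists were chosen with earlier results of these data known. Named were all 10 core genes and some of their transcripts of mean at least 1 FPKM. Also named were up to 4 called genes of largest fold change per list (otherwise the 2 of highest mean), and the 5 most and 3 least like CTNNB1. Chromosome positions are from RefSeq; promoter and protein sequences were not analysed here. On simulated W2 vs PL data with 26019 genes, limma recovered 64 of 100 genes changed by 2 and 78 of 100 changed by 3 (log2), with 7 false calls. No other gene was changed there and the noise was independent between genes. In the data 32.8% of genes were called in W2 vs PL, so these rates may not carry over. Same-numbered sows did not consistently deviate together (r -0.099 to 0.14 over 19 pairs). Over the 71 pairs of different number r was -0.11 to 0.18, with a median of -0.043. Some sows of different number did deviate together, such as MG 1 with LG 3 (0.18), EL 4 (0.15) and W2 6 (0.13). A block by such sets was not fitted.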

Additional observations from a re-analysis of the deposited data

How the results depend on the processing

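Main counts were 12 core gene calls over the 10 comparisons (5 in W2 vs PL, 3 in PL vs MG, 2 in PL vs LG, 1 each in EL vs MG and W2 vs EL), 106 wider pathway calls (47 in W2 vs PL), 19 core transcript calls and 2 core genes in the F test. AXIN2 was called in W2 vs PL under all 28 alternatives (2.89 to 5.55) and CTNNB1 under 27 of 28, the exception being the fit on PL and W2 alone (adjusted p = 0.057). The deposited table holds no read counts, and with 3 sows a stage small differences can be missed. The share of all genes called also changed between alternatives and is given for only some of them. The counts below are therefore no result about the core genes by themselves.

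With median ratio scaling W2 vs PL had 3 core genes, EL vs MG 0, the wider pathway 37 (16 in W2 vs PL) and transcripts 8. Scaling without PL replicate 2, added after seeing the data, gave 3 in W2 vs PL, 1 in PL vs LG, 2 in W2 vs EL, wider 45 (11) and transcripts 5. Quantile normalization gave 7 in all, 2 in W2 vs PL, 0 in EL vs MG, wider 46 (17) and transcripts 7. A filter of at least 1 FPKM in at least 3 samples gave 3 in W2 vs PL, because it left LEF1 and WNT5A untested. A pseudocount of 0.1 gave 0 in EL vs MG. Fits on the compared stages alone gave 3 in all (1 each in W2 vs PL, PL vs MG and PL vs LG; 0 in EL vs MG and W2 vs EL), wider 24 (15) and transcripts 10. The highest transcript of each gene gave 5 in all (3 in W2 vs PL, 1 each in PL vs MG and PL vs LG, 0 in EL vs MG and W2 vs EL), wider 65 and 1 in the F test.

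Counting all 6 samples gave 42 in all (W2 vs PL 8, PL vs MG 8, W2 vs EL 6, PL vs LG 5, EL vs MG 5, PL vs EL 4, W2 vs LG 3, EL vs LG 2, LG vs MG 1), wider 414 (71), transcripts 229 and 8 in the F test. The near-identical samples as 1 further sample gave 23 (W2 vs PL 8, PL vs MG 5, W2 vs EL 4, EL vs MG 2, EL vs LG 1), wider 251, transcripts 102 and 7. Both narrow the spread by construction. With all 6 samples the F test called 75.8% of all genes. Of 26019 genes, 14289 were then called higher in W2 vs PL and 12890 lower in PL vs MG. With MG and EL exchanged PL vs EL had 3, PL vs MG 0, W2 vs MG 1, W2 vs EL 0, and AXIN2 in EL vs MG turned to 2.79.

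The replicate block gave 0 in EL vs MG, 1 in PL vs LG, 0 in W2 vs EL, wider 61 and transcripts 7. The sows share only a number, and no other core gene call between 2 stages changed with the block. TCF7L2 passed the F test (adjusted p = 0.045), which called 10.2% of all genes in that fit.

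Leaving out 1 sow gave 9 to 14 core calls in all, 3 to 6 in W2 vs PL, 0 to 2 in EL vs MG, 2 to 4 in PL vs MG, 1 to 3 in PL vs LG, 1 to 2 in W2 vs EL, 0 to 1 in EL vs LG, wider 75 to 132 (32 to 52), transcripts 10 to 27 and 2 to 3 in the F test. The lowest W2 vs PL count came without PL replicate 2 or W2 replicate 3. EL vs LG had 1 call without EL replicate 6.

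In W2 vs PL the sign turned, with no call, for APC (-0.21 with median ratio scaling, -0.25 with quantile normalization, -0.15 scaled without PL replicate 2), GSK3B (-0.27, -0.23; -0.17 without PL replicate 3, and up to 0.96 without W2 replicate 6), WLS (-0.069, -0.082, -0.36), PORCN (-0.083, -0.16, -0.16), PRICKLE1 (-0.021 with median ratio scaling, -0.096 scaled without PL replicate 2) and CDH1 (-0.0095 scaled without PL replicate 2). The cause was not tested.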
